A study of Mus musculus with 82 samples.

Results

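The departure from additivity was examined in the 24 h incubation of murine aortic vascular smooth muscle cells (aVSMC) for the pair EGF and U46619. Its members were the 24 libraries, of 82 in the series, of 4 groups with 6 cultures each: control, EGF (10 µg/L), U46619 (1 µM) and EGF+U46619 at the same doses. All were primary cells of C57BL/6 mice, used after up to 7 passages, kept without serum and supplements for 24 h and then incubated for 24 h in the same medium. The 6 cultures of a group came from 6 mice, and the mouse numbers 1 to 6 were shared by the groups, so that each mouse gave 1 value of the departure. Animal age was not given in the sources used here.

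EGF activates the EGF receptor (EGFR), a tyrosine kinase that drives the RAS-RAF-MEK-ERK cascade and PI3K-AKT signalling, both of which push resting cells into the cell cycle. U46619 is a stable agonist of the thromboxane A2 receptor (TP, gene Tbxa2r), a G protein-coupled receptor of smooth muscle that raises calcium and RhoA activity and causes contraction. Many G protein-coupled receptors can also transactivate EGFR, which is the known point of contact between the pathways. For each mouse the departure was the log2-fold change of EGF+U46619 against control minus those of EGF and of U46619. A value of 0 means that the fold changes multiply, a value below 0 that the combined level lay below that product, and a value above 0 that it lay above it. Where the sum of the single responses is an increase, a departure below 0 falls short of it, and where the sum is a decrease, a departure above 0 falls short of it.

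Total counts ran from 18785876 to 20818809 per library. The 50 most abundant genes took 14.4 to 23.7% of the counts, and the highest share was that of the control culture of mouse 1, a library that enters every departure of that mouse with a positive sign. The smooth muscle marker Acta2 was measured at 352 to 14753 FPM (fragments per 1000000, TMM-scaled) and Myh11 at 0.614 to 276 FPM, while Tagln and Cnn1 are listed at 0 in all libraries. The smooth muscle list summed to 1256 to 5380.2 FPM in control, 433 to 9105 FPM with EGF, 4426 to 15184 FPM with U46619 and 1719 to 13055 FPM with EGF+U46619. Of 8 endothelial markers 7 had a count, with Cdh5 at 0, and they summed to 4.85 to 2192 FPM in control, 2.99 to 2082 FPM with EGF, 3.03 to 1949 FPM with U46619 and 1.92 to 2525 FPM with EGF+U46619. The fibroblast list, with Dpep1 and Clec3b at 0, summed to 378 to 879 FPM in control, 374 to 789 FPM with EGF, 223 to 623 FPM with U46619 and 216 to 597 FPM with EGF+U46619. The leukocyte markers summed to 21.0 to 114 FPM in control, 18.7 to 106 FPM with EGF, 23.4 to 76.7 FPM with U46619 and 22.1 to 61.9 FPM with EGF+U46619, with Ptprc measured at 0 in these libraries and Cd3e listed at 0. Tagln, Cnn1, Cdh5, Dpep1, Clec3b and Cd3e lie on chromosome 9 or in the part of chromosome 8 where every gene is listed at 0. Their values of 0 are therefore no measure of expression. The part of these other cell types in the departures was not tested, and fewer cells of a type cannot be told apart from less RNA per cell in such cultures.

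No gene departed from the sum at an FDR under 0.05 in edgeR or in DESeq2 (0 of 14653 genes, 0.0%). The adjusted p in edgeR was 0.999987 for every gene named here, so the single genes that follow are descriptions and not calls. A looser threshold, an unadjusted p under 0.05 in edgeR and in DESeq2 and a level of 5 FPM or more in at least 1 group, put 1.29% of the genes above the sum and 0.839% (123 genes) below it. Whatever their p, 6742 of the 14653 genes lay below the sum and 7911 above it. The members of each gene group are counted against these shares below. The lists described had at least 2 members past the looser threshold or a median departure of at least 0.4 in size. That choice was made after the values were seen. The edgeR test alone gave 460 genes at an unadjusted p under 0.05 and DESeq2 544, fewer than 5% of those tested. A limma fit on the 6 within-mouse departures, which estimates the spread of each gene's departure instead of the spread of all 42 libraries, gave 2732 genes (18.6%) and 1 gene past its FDR. That gene was Ifit3b (departure 1.27, limma FDR = 0.0498), an interferon-induced gene with near-identical copies, whose counts share reads because the authors counted reads that map to several places.

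The departures were far from alike in the 6 mice. Among genes with at least 5 FPM, their SD across genes was 0.75 in mouse 1 and 0.58 in mouse 2, and 0.38 to 0.48 in mice 3 to 6. The single responses varied in the same way, with an SD of the EGF response of 0.87 in mouse 1 and 0.19 in mouse 6. Across genes, the departures of mice 1 to 3 had correlations of 0.35 to 0.56 with each other, and those of mouse 1 with mice 4 and 6 had 0.014 and 0.061. Genes are not independent replicates, and the values are given as a description.

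Genes that answered to EGF lay short of the sum in either direction. To read this without the libraries that define the departure, genes were classed by their EGF response in AngII-treated cultures of the same mice (EGF+AngII against AngII alone, 10 nM, unadjusted edgeR p under 0.05) and by their U46619 response after 48 h in 5 culture sets from 4 other mice by their labels, 2 of the sets from 1 mouse (FDR under 0.05). In the 475 genes that were higher with both, the median response in the 24 h contrast was 0.39 with EGF, 0.70 with U46619 and 0.88 with both. The median sum was 1.10 and the median departure -0.24. The class medians in mice 1 to 6 were -0.45, -0.38, -0.13, -0.16, -0.12 and -0.30, below 0 in 6 of 6 mice, and 95.8% of the genes lay below the sum. In the 595 genes that were lower with both, the sum of -1.54 compared with a measured -1.18, a median departure of 0.31. Its values in mice 1 to 6 were 0.54, 0.46, 0.23, 0.15, 0.16 and 0.15, above 0 in 6 of 6 mice. Of the 8472 genes in neither list, 44.6% lay below the sum, with a median departure of 0.032.

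Genes in an EGF class and in no U46619 class had median departures about as large as genes in both. That they are in no U46619 class is read at 48 h and does not mean that they were level with U46619 at 24 h: the median U46619 response at 24 h was 0.47 beside an EGF response of 0.41 in those higher with EGF, and -0.43 beside -0.36 in those lower. Genes higher with EGF and in no U46619 class (1242 genes) had a median departure of -0.29, and those lower with EGF (1256 genes) one of 0.27, with the same sign in 6 of 6 mice in both. By contrast, 1325 genes in the class higher with U46619 and in no EGF class had a median departure of -0.021, below 0 in 3 of 6 mice, at a measured response of 0.50 for a sum of 0.53. The 1175 genes in the class lower with U46619 and in no EGF class had 0.066, above 0 in 4 of 6 mice. The criteria are not of equal strength, since the EGF class was read in the same mice at the same time and the U46619 class in others at another time, and the difference between classes was not tested.

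Few genes were in classes of opposed direction. In 46 genes classed as higher with EGF and lower with U46619, the median U46619 response at 24 h was -0.15 beside an EGF response of 0.32, and the combination came to 0.028 for a sum of 0.28, a departure below 0 in 5 of 6 mice. In 67 genes classed as lower with EGF and higher with U46619, the median U46619 response at 24 h was -0.00677, so that as a group they were not higher with U46619 at that time. With both, the median came to -0.14 for a sum of -0.30, above 0 in 6 of 6 mice. On the linear scale, where FPM are added instead of logarithms, 82.5% of the genes higher with both still lay below the sum, against 43.8% of the genes in neither list. For genes lower with both it was 2.02%. There the linear scale could not turn a departure above 0, since decreases multiplied end above the same decreases added.

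**Figure D1:**
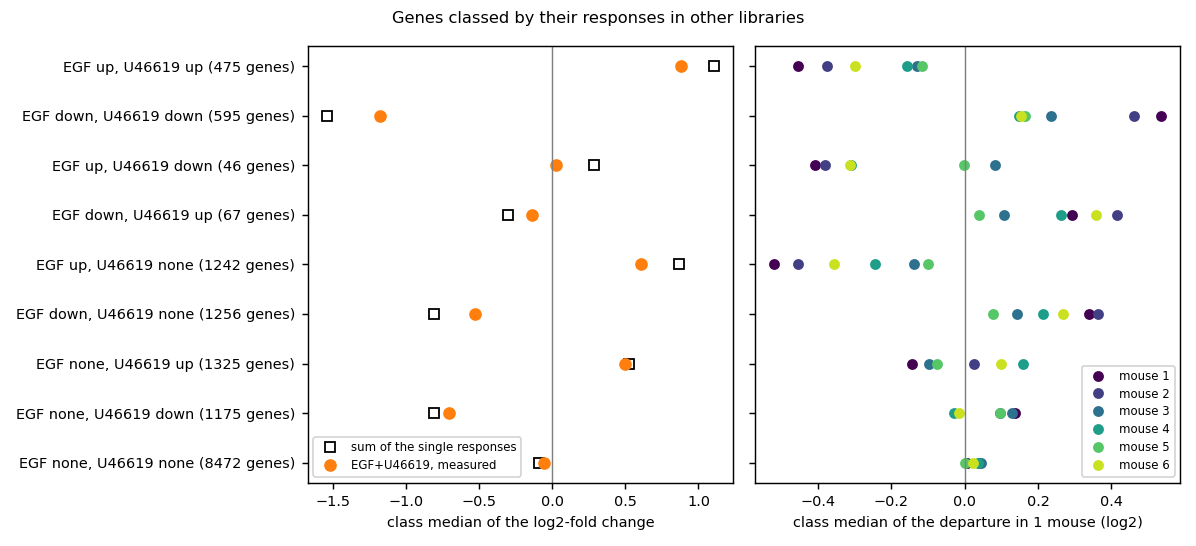
Genes grouped by the direction of their EGF response in AngII-treated cultures and of their U46619 response after 48 h; left, class medians of the sum of the single log2-fold changes (open squares) and of the measured combined change (filled circles) after 24 h; right, the class median of the departure in each of the 6 mice. In the classes higher with EGF the circles lie nearer to 0 than the squares and the departures reach -0.52, and in the classes lower with EGF they reach 0.54.

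Single genes past the unadjusted threshold showed the same direction, but this count is not independent of how they were found. All genes above the sum had a sum below 0, and 117 of 123 below it had a sum above 0. The sum and the departure share the EGF, U46619 and control libraries with opposite signs, which by itself makes such a pattern, and among all tested genes 11511 of 14653 fell short of their sum. The combined response had the opposite sign to the sum in 12 of the genes above and in 17 of the 123 below. The same was seen in 1418 of all 14653 genes tested, so such a turn is not particular to these genes, and the difference was not tested. The departure had the same sign in 6 of 6 mice for 75.1% of the genes above and 48.0% of those below. Over all genes tested this share was 11.0%. The genes were picked by a low p for this same departure in these mice, which by itself raises the share.

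Neither receptor gene departed from the sum at the unadjusted threshold. Egfr levels had lowest, median and highest values of 20.2, 145 and 227 FPM in the control cultures, 18.7, 156.5 and 226 FPM with EGF, 25.6, 105 and 184.8 FPM with U46619 and 28.1, 109.9 and 164.5 FPM with EGF+U46619, ranges that overlap throughout. Its departure was -0.021 (SE 0.32). For Tbxa2r they were 49.5, 58.0 and 187.6 FPM in the control cultures, 14.4, 46.2 and 97.7 FPM with EGF, 17.5, 30.6 and 38.8 FPM with U46619 and 11.3, 17.2 and 35.8 FPM with EGF+U46619. Tbxa2r differed from control by -0.80 with EGF, -1.31 with U46619 and -1.98 with both, against a sum of -2.11 on the log2 scale, which left a departure of 0.14 (SE 0.45), above 0 in 4 of 6 mice. The U46619 and combined changes passed the edgeR FDR (0.00218 and 2.6e-05), the EGF change did not (0.174).

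Feedback inhibitors of the ERK pathway, genes that ERK switches on and that then restrain it, lay below the sum in 15 of 20 tested members. At the unadjusted threshold 4 lay below it and 0 above, where 0.839% and 1.29% of all genes did. The list median was -0.26, beside 0.030 over all genes tested. The 4 members were Spry4 and Spry1, Sprouty inhibitors of RAS activation, and Dusp6 (-0.90) and Dusp4 (-1.03), phosphatases that act on MAP kinases. Spry4 stood at 2.04, 10.6 and 25.5 FPM in the control cultures, 15.0, 41.5 and 73.5 FPM with EGF, 6.15, 9.75 and 22.2 FPM with U46619 and 9.00, 12.2 and 32.8 FPM with EGF+U46619. In mice 1 to 3 it was at 56.7 to 73.5 FPM with EGF, above every other culture of the 24. With U46619 added, the level with EGF was lower in 6 of 6 mice, at 9.00 to 32.8 FPM. The log2-fold changes were 2.13 with EGF, 0.048 with U46619 and 0.42 with both, against a sum of 2.18, and the departure was -1.76 (SE 0.68), with values of -4.14, -3.22, -0.96, -0.094, -0.57 and -0.48 in mice 1 to 6. Spry1 was lower with U46619 in the fit (-1.11, FDR = 0.000493) and lower still with both (-1.49, FDR = 1.29e-05), beyond a sum of -0.69. Its departure was -0.80 (SE 0.32), below 0 in 5 of 6 mice. The most abundant member, the RAS GTPase-activating protein Rasa3, had a departure of -0.038 (SE 0.23). Mean departures of the list in mice 1 to 6 were -0.87, -0.65, -0.37, 0.079, -0.18 and 0.030, and without mouse 1 the list median was -0.089.

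The proliferation genes had the lowest list medians. DNA replication genes encode the helicase, polymerase clamp and nucleotide supply that copy the genome in S phase. All 45 tested members lay below the sum, 12 of them past the unadjusted threshold, where 0.839% of all genes did, and the 2 other members are listed at 0. The median log2-fold changes were 1.06 with EGF, 1.11 with U46619 and 1.40 with both, against a median sum of 2.23. The median departure was -0.76. The members rise and fall together in the cell cycle and are not independent of each other. The 12 were the MCM helicase subunits Mcm2 (-0.94), Mcm5 (-1.34) and Mcm6 (-0.76), the helicase partner Gins3 (-0.75), the polymerase clamp Pcna (-0.82) and its loaders Rfc3 (-0.59) and Dscc1 (-1.33), the thymidylate synthase Tyms (-0.86), the histone mRNA binder Slbp (-0.70), the chromatin assembly subunit Chaf1b (-0.999), Cdca7 and Ung.

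Ung, the uracil-DNA glycosylase that removes uracil from DNA (chr5:114130386-114139323, GRCm38), had the lowest edgeR p below the sum by the rule for named genes. Its lowest, median and highest levels were 2.15, 3.32 and 4.47 FPM in the control cultures, 5.21, 9.50 and 28.8 FPM with EGF, 6.03, 10.5 and 19.2 FPM with U46619 and 8.84, 11.5 and 17.1 FPM with EGF+U46619. The control cultures did not overlap with any treated group, and the 3 treated groups overlapped with each other. In mice 1 and 3 the culture with EGF alone was higher than that with EGF+U46619. Its log2-fold changes were 1.68 with EGF, 1.72 with U46619 and 1.80 with both, against a sum of 3.40, so the combination came to about the level of either substance alone. The departure was -1.60 (SE 0.40) and, by mouse, -2.94, -2.09, -2.29, -0.15, -1.01 and -0.24. Cdca7, a chromatin factor of S phase, gave 1.35 with EGF, 1.23 with U46619 and 1.53 with both, against a sum of 2.58, with a departure of -1.05 (SE 0.32). Rrm1, a subunit of the reductase that makes deoxynucleotides and the most abundant member, gave -0.41 (SE 0.34) and lay below the sum in 6 of 6 mice.

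Mitotic genes, which build the spindle and kinetochore and trigger entry into mitosis, had a larger median shortfall with none past the threshold. All 46 tested members lay below the sum, 0 of them past the unadjusted threshold, and their median departure was -0.87, or -1.45 as a mean over mice of log2(FPM + 0.5). The median change was 1.46 with EGF, 1.24 with U46619 and 1.82 with both. Top2a, the topoisomerase that untangles chromosomes, stood at 8.98, 39.0 and 83.8 FPM in the control cultures, 100.5, 155.6 and 277 FPM with EGF, 44.3, 117 and 319 FPM with U46619 and 66.7, 234 and 538 FPM with EGF+U46619. Its departure was -0.96 (SE 0.80), below 0 in 6 of 6 mice, and -0.59 without mouse 2. Cdc25c, the phosphatase that activates CDK1, gave -1.45 (SE 0.81) and the condensin subunit Ncaph -1.19 (SE 0.67).

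In the mitotic list the mice divided by how far the control cultures were below the treated ones. Mean departures of the mitotic list were -3.68, -2.41, -1.66, -0.032, -0.44 and -0.28 in mice 1 to 6, and those of the replication list -2.23, -1.44, -1.18, 0.11, -0.54 and -0.13. In the control cultures the mean level of the mitotic list was 1.58, 2.21, 2.71, 3.75, 3.49 and 4.30 on the log2(FPM + 0.5) scale, lowest in mice 1 to 3. Its response to EGF was 4.28, 2.74, 2.89, 0.49, 1.01 and 0.16 and that to U46619 4.44, 3.36, 2.36, -0.48, -0.10 and -0.17. In the mitotic list, mice 1 to 3 had a large response to either substance and a large shortfall. Mice 4 to 6 had a smaller response there and a departure of -0.44 or nearer to 0. The replication list was less clearly divided, with -0.54 in mouse 5. A low control level lowers the departure and raises both single responses, so these values share a library. With the AngII culture of the same mouse in the place of the control, an exchange chosen after seeing the data, the departures of the mitotic list were -2.64, -2.62, -1.54, 0.012, -0.50 and -0.35.

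**Figure D2:**
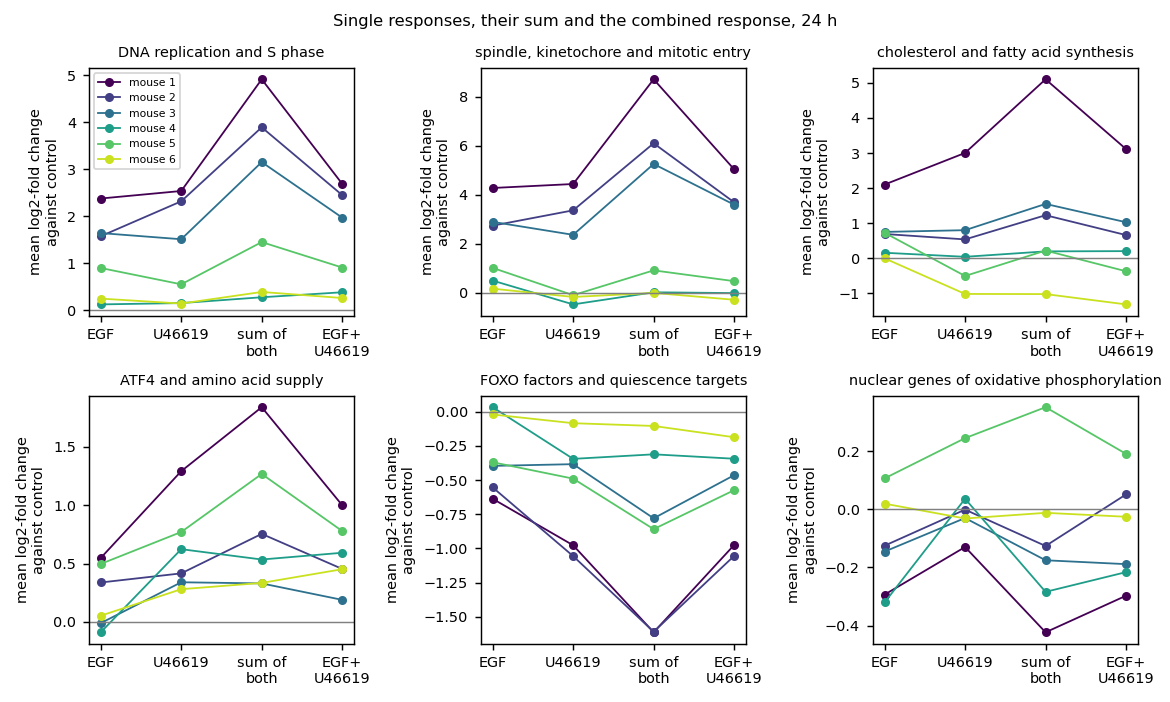
Mean log2-fold change against control over the tested members of 6 gene lists, in mice 1 to 6, with EGF, with U46619, as the sum of both and measured with EGF+U46619. In the replication and mitotic lists the measured change of mice 1 to 3 drops well below the sum, and in mice 4 and 6 it stays within 0.28 of it.

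The G1 regulators were divided. Of 17 tested G1 cyclins, kinases and inhibitors, 3 lay below the sum at the unadjusted threshold, where 0.839% of all genes did. The 3 were the S phase cyclins Ccne1 and Ccne2 and their kinase Cdk2, while the list median was -0.031. Ccne1 gave 1.21 with EGF, 1.53 with U46619 and 1.67 with both, against a sum of 2.75, a departure of -1.07 (SE 0.44). Cdk2 gave -0.50 (SE 0.21) and Ccne2 -1.32. Ccnd2, the D cyclin that was the most abundant member, stood at 307, 645 and 895 FPM in the control cultures, 329, 634 and 1018 FPM with EGF, 369, 581 and 813 FPM with U46619 and 339.9, 611 and 971 FPM with EGF+U46619. These ranges overlap in all groups, and its departure was 0.020 (SE 0.15).

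Promoter sequence upstream of the start site is shown for 4 genes that carry one of the elements searched for. The letters searched on both strands were TTTGGCGC, TTTCGCGC, TTTGCCGC and TTTCCCGC, the forms of the E2F site that many S phase genes carry, TGACGTCA, the cyclic AMP response element, and TGATGNAA, the core of the element that ATF4 binds with a C/EBP partner. Of 27025 promoters (250 bases before to 50 after the start) in the RefSeq table of GRCm38.p6, 2.32% held an E2F form, against 12 of 38 for the replication list, 3 of 12 for the G1 list and 3 of 37 for the mitotic list. The ATF4 core was in 4.06% of all and in 9 of 27 of the amino acid supply list described next, and TGACGTCA in 1.88% of all. A match is a run of letters and not a shown binding site. The 200 bases before the start of transcription follow, 5′ to 3′ on the gene's strand, in lower case with the match in capitals, which reads as the reverse complement where the letters lie on the other strand. They are Cdca7 (chr2:72476019-72476218, plus strand) and Cdk2 (chr10:128705052-128705251, minus strand) with an E2F form, Asns (chr6:7693210-7693409, minus strand) with the ATF4 core, and Scg2 (chr1:79440027-79440226, minus strand), the gene with the lowest p above its sum among those with 1 sign in 6 of 6 mice, with the cyclic AMP element.
Cdca7: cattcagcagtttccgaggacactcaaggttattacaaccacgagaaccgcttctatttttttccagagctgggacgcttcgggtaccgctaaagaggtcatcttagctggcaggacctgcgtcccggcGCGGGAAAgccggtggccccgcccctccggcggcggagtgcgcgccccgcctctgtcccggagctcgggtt
Cdk2: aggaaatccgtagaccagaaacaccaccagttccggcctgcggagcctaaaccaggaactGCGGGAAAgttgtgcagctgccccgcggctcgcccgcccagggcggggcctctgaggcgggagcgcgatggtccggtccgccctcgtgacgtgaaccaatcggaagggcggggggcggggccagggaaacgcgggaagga
Asns: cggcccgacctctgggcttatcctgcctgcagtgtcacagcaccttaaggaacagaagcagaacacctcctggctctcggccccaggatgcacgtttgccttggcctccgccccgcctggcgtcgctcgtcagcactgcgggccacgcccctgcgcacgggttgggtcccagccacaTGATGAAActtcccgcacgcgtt
Scg2: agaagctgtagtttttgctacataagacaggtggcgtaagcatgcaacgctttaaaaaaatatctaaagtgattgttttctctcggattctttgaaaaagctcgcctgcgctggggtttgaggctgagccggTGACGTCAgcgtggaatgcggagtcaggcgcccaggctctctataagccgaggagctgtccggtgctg

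Genes of amino acid supply, which the transcription factor ATF4 turns on, also lay mostly below the sum. Of 32 tested members 28 lay below the sum, with a median of -0.27. At the unadjusted threshold, where 0.839% of all genes lay below the sum, 3 members did. They were the mitochondrial folate enzyme Mthfd2, the asparagine synthetase Asns and the proline enzyme Pycr1 (-0.58). Mthfd2 (chr6:83305691-83325908) stood at 35.9, 57.8 and 77.4 FPM in the control cultures, 60.2, 87.5 and 172.6 FPM with EGF, 92.2, 163.3 and 325 FPM with U46619 and 87.8, 151.8 and 268 FPM with EGF+U46619. The ranges with U46619 and with EGF+U46619 overlapped, and both lay above the highest control culture. The log2-fold changes were 0.68 with EGF, 1.48 with U46619 and 1.37 with both, against a sum of 2.16. The departure was -0.79 (SE 0.21), with -1.43, -0.95, -0.81, -0.32, -0.98 and -0.33 in mice 1 to 6. That all of these lie below 0 was required by the rule for named genes. Asns gave 0.42 with EGF, 1.14 with U46619 and 1.03 with both, against a sum of 1.56, a departure of -0.53 (SE 0.23) that was below 0 in 5 of 6 mice. Atf5, a transcription factor of the same response and the most abundant member, gave -0.017 (SE 0.35).

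Cholesterol and fatty acid synthesis genes, targets of the sterol-sensing factor SREBP, lay below the sum in all 26 tested members, with 0 past the unadjusted threshold and a median departure of -0.48. By mouse the means were -1.99, -0.57, -0.52, 0.0074, -0.59 and -0.29. That of mouse 1 stands apart from the others, and its control culture had the list at 4.64 on the log2(FPM + 0.5) scale, where its AngII culture had 5.44. Without mouse 1 the median departure was -0.29. The fatty acid desaturase Scd2, the most abundant member, gave -0.35 (SE 0.47) and lay below the sum in 5 of 6 mice.

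FOXO factors and genes of quiescent cells, which growth factor signalling through AKT holds down, were the list furthest above the sum, which for them is short of a summed decrease. Of 24 tested members 20 lay above it and 4 passed the unadjusted threshold (1.29% of all genes did), with a median of 0.28. The median log2-fold change was -0.30 with EGF, -0.52 with U46619 and -0.54 with both. The list means by mouse were 0.64, 0.55, 0.32, -0.032, 0.29 and -0.082. The 4 members were the transcription factors Foxo1, Foxo3 (0.39) and Sox4 and the coregulator Cited2 (0.53). Sox4 stood at 188.8, 314 and 404 FPM in the control cultures, 100.1, 205 and 324 FPM with EGF, 74.8, 202 and 342 FPM with U46619 and 82.0, 207 and 354 FPM with EGF+U46619. Its combined change of -0.72 was about that with either substance (-0.65 and -0.78), with a departure of 0.71 (SE 0.29) that was above 0 in 6 of 6 mice. Foxo1 gave 0.40 (SE 0.18), also in 6 of 6 mice. Txnip, an inhibitor of thioredoxin and of glucose uptake and the most abundant member, went from 264, 588 and 1849 FPM in control (lowest, median and highest) to 94.9, 197 and 338 FPM with EGF+U46619. The highest control value was that of mouse 1, and the departure of Txnip was 0.75 (SE 0.41), or 0.40 without mouse 1.

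Of 18 tested collagens 14 lay below the sum, with a median departure of -0.40. The median sum of the list was itself a decrease (-0.23), and its median combined change was -0.28. At the unadjusted threshold, where 0.839% of all genes lay below the sum, 3 collagens did. They were Col4a1 and Col4a2, the paired chains of the basement membrane network, and Col15a1 (-1.32) of the basement membrane zone. Col4a1 stood at 1181, 2179.8 and 3362 FPM in the control cultures, 1595, 3642 and 4133 FPM with EGF, 1922, 3973 and 4829 FPM with U46619 and 1465, 3429 and 3597 FPM with EGF+U46619. Its log2-fold changes were 0.47 with EGF, 0.60 with U46619 and 0.37 with both, against a sum of 1.07, with a departure of -0.69 (SE 0.24). For Col4a2 they were 0.52 with EGF, 0.76 with U46619 and 0.48 with both, against a sum of 1.28, with a departure of -0.80 (SE 0.26). The paired chains lie side by side and were below the sum in the same number of mice, 5 of 6. Col1a2, a chain of fibrillar collagen I and the most abundant collagen, came to -0.88 for a sum of -0.88 (departure 0.0073, SE 0.33).

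In the proteoglycans and matrix proteases past the unadjusted threshold, the combination ended below the control level where the sum lay higher. At that threshold 0.839% of all genes lay below the sum. The lists themselves had summed decreases, with median sums of -2.30 for proteoglycans and -1.04 for proteases and inhibitors. Above the sum lay 4 of 10 and 7 of 19 members. Among 10 small leucine-rich proteoglycans, which bind collagen fibrils, 2 passed the unadjusted threshold, with a list median of -0.13. Lum stood at 0.234, 14.9 and 53.3 FPM in the control cultures, 0.575, 11.8 and 102 FPM with EGF, 0.653, 2.28 and 41.6 FPM with U46619 and 0.362, 1.32 and 13.9 FPM with EGF+U46619. It differed widely between mice within each group, and it came to -2.70 with both for a sum of -0.47. The departure of Lum was -2.23 (SE 0.87), or -1.28 as a mean over mice, and by mouse -2.24, -2.04, -1.10, -0.87, -0.46 and -0.97. Podn gave -0.74 (SE 0.31), and the most abundant member Prelp -0.22 (SE 0.63). Among 19 matrix proteases and inhibitors (median -0.12), 2 passed. The metalloproteinase Mmp19 gave 0.42 with EGF, -0.31 with U46619 and -0.42 with both, against a sum of 0.11, and a departure of -0.53 (SE 0.21) that was below 0 in 6 of 6 mice. The aggrecanase Adamts4 gave -0.76 (SE 0.35) and lay below 0 in 4 of 6, while the protease inhibitor Timp2, the most abundant member, gave 0.27 (SE 0.23).

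In the list of provisional and matricellular matrix, which cells lay down in repair, the median departure was -0.63 (-0.31 as a mean over mice) with 0 of 17 members past the unadjusted threshold, and the list means were below 0 in 6 of 6 mice at -0.58, -0.62, -0.32, -0.20, -0.26 and -0.54. Ccn3, a matricellular protein that restrains growth, gave -1.60 with both for a sum of -0.61 (departure -0.998, SE 0.55). The hyaluronan modifier Tnfaip6 gave -1.18 (SE 0.60) at a mean of at most 4.49 FPM. Fibronectin, Fn1, the most abundant, gave 0.10 (SE 0.29).

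**Figure D3:**
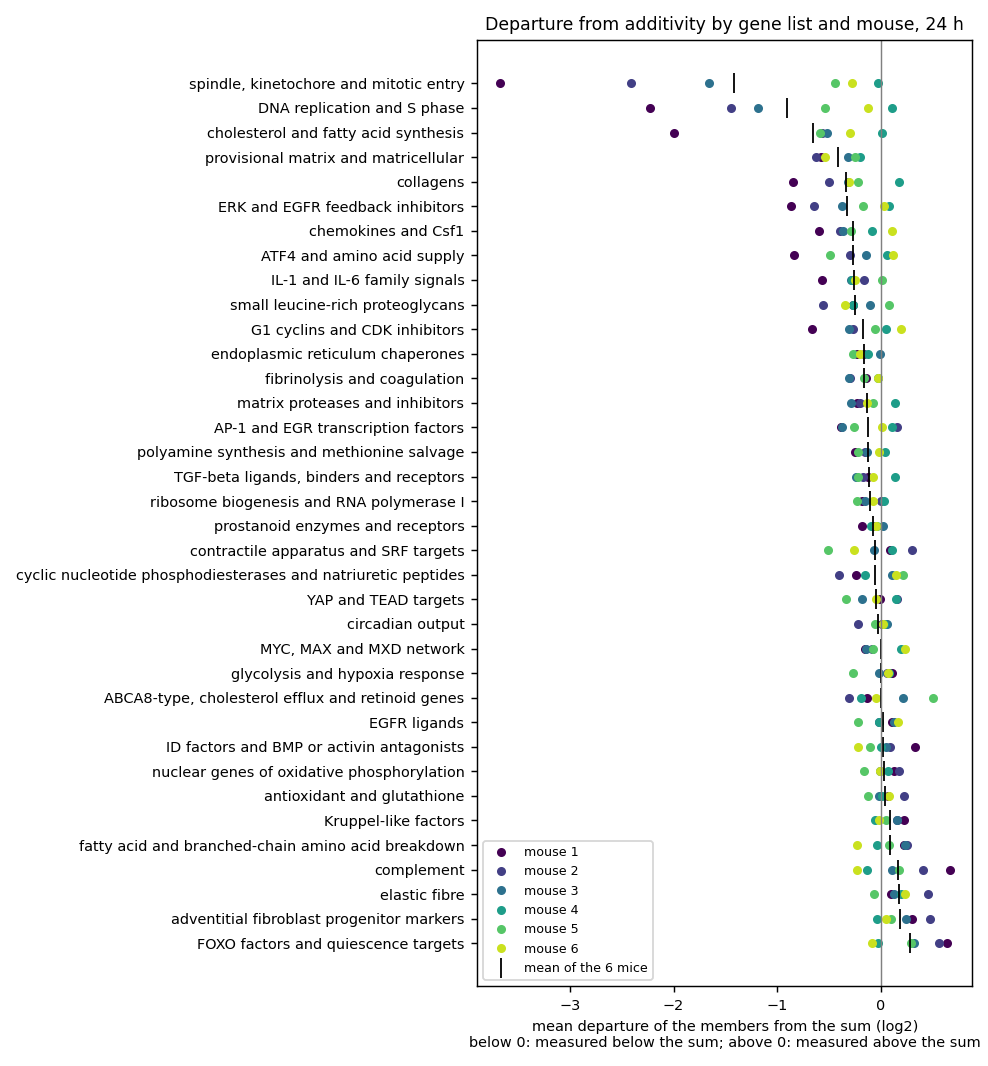
Mean departure over the tested members of each of 36 gene lists, 1 point per mouse, with the mean of the 6 mice as a bar; values below 0 lie below the sum. The mitotic and replication lists reach -3.68 and -2.23 in mouse 1, and the FOXO list reaches 0.64.

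The remaining 25 of 36 lists had medians between -0.30 (IL-1 and IL-6 family) and 0.26 (complement), with 4 members above and 6 below the sum at the unadjusted threshold. Contractile and SRF target genes (-0.13 over 23 members), ribosome biogenesis (-0.11) and glycolysis (-0.052) had 0, 0 and 1 such member, at median U46619 responses of 0.80, 0.78 and 0.60. For ribosome biogenesis, the machinery that makes ribosomes, the median combined change was 0.90 for a sum of 1.03. Adventitial fibroblast markers (0.22) and complement genes lay above a summed decrease, with 0 members past the threshold, and without mouse 1 the complement median was 0.065.

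By the rule for named genes, Scg2, Hoxc6, Apol9a, Vnn1, Eif4b, Apol9b, Trim11 and Mex3a had the lowest p above the sum. Scg2 encodes secretogranin II, a protein of secretory granules (chr1:79434669-79440120), and was measured in the control cultures of mice 1 to 6 at 1775, 41.2, 8.93, 2.14, 42.1 and 0.422 FPM. The other groups had lowest, median and highest values of 0.443, 4.28 and 302 FPM with EGF, 0, 2.07 and 478 FPM with U46619 and 0.103, 2.42 and 188.2 FPM with both. Mouse 1 is the highest in every group by more than an order of magnitude, and each mouse but the sixth is lower in all 3 treated groups than in its control. The log2-fold changes were -1.97 with EGF, -2.52 with U46619 and -2.87 with both, against a sum of -4.49, so that the combined decrease was little deeper than that of U46619, with a departure of 1.63 (SE 0.46) and values of 1.21, 2.89, 1.14, 0.64, 2.28 and 0.24 by mouse. On the FPM scale the sum would lie below 0 (-176.6 FPM), a level that cannot occur.

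Eif4b, a translation initiation factor, stood at 346, 561 and 784 FPM in the control cultures, 285, 419.9 and 674 FPM with EGF, 295, 408 and 621 FPM with U46619 and 309, 459 and 731 FPM with EGF+U46619. The change with both (-0.20) was smaller than that with EGF (-0.32) or U46619 (-0.35), and its departure was 0.48 (SE 0.16). Hoxc6, a homeobox factor of body position, gave 0.61 (SE 0.18), the ubiquitin ligase Trim11 0.47 (SE 0.16), the RNA-binding protein Mex3a 0.55 (SE 0.18) and the pantetheinase Vnn1 1.75 (SE 0.57), or 0.99 without the replicate block. Apol9a and Apol9b, interferon-induced apolipoprotein L genes, gave 1.23 (SE 0.39) and 1.23 (SE 0.41). They are near-identical neighbours whose counts share reads, and count as 1 observation. Apol9a stood at -0.56 with EGF, -0.46 with U46619 and 0.22 with both, none of these past the FDR.

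Below the sum, besides Ung and Mthfd2, the rule gave Hsd11b1, Golt1b, Taf13, Alg8, Srp54a and Nkd2. Hsd11b1, which regenerates active glucocorticoid, stood at 3.53, 17.3 and 166.1 FPM in the control cultures, 11.6, 25.8 and 238 FPM with EGF, 5.78, 14.2 and 103 FPM with U46619 and 4.96, 12.1 and 96.1 FPM with EGF+U46619. It was higher with EGF than in control in 6 of 6 mice, and with U46619 added it was lower than with EGF alone in 6 of 6. The log2-fold changes were 0.93 with EGF, -0.17 with U46619 and -0.46 with both, against a sum of 0.76, a departure of -1.22 (SE 0.34) with -1.51, -1.75, -1.58, -0.61, -0.73 and -1.04 by mouse. Nkd2, an inhibitor of WNT signalling, was at 1.35 with U46619 and 0.88 with both (departure -0.74, SE 0.26). The others act in the secretory pathway or in transcription: Golt1b in Golgi transport (-0.45, SE 0.14), Alg8 in N-glycan assembly (-0.73, SE 0.25), Srp54a in the signal recognition particle (-0.82, SE 0.28) and Taf13 in the TFIID complex (-0.63, SE 0.21). Srp54a has near-identical copies and its counts are uncertain.

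**Figure D4:**
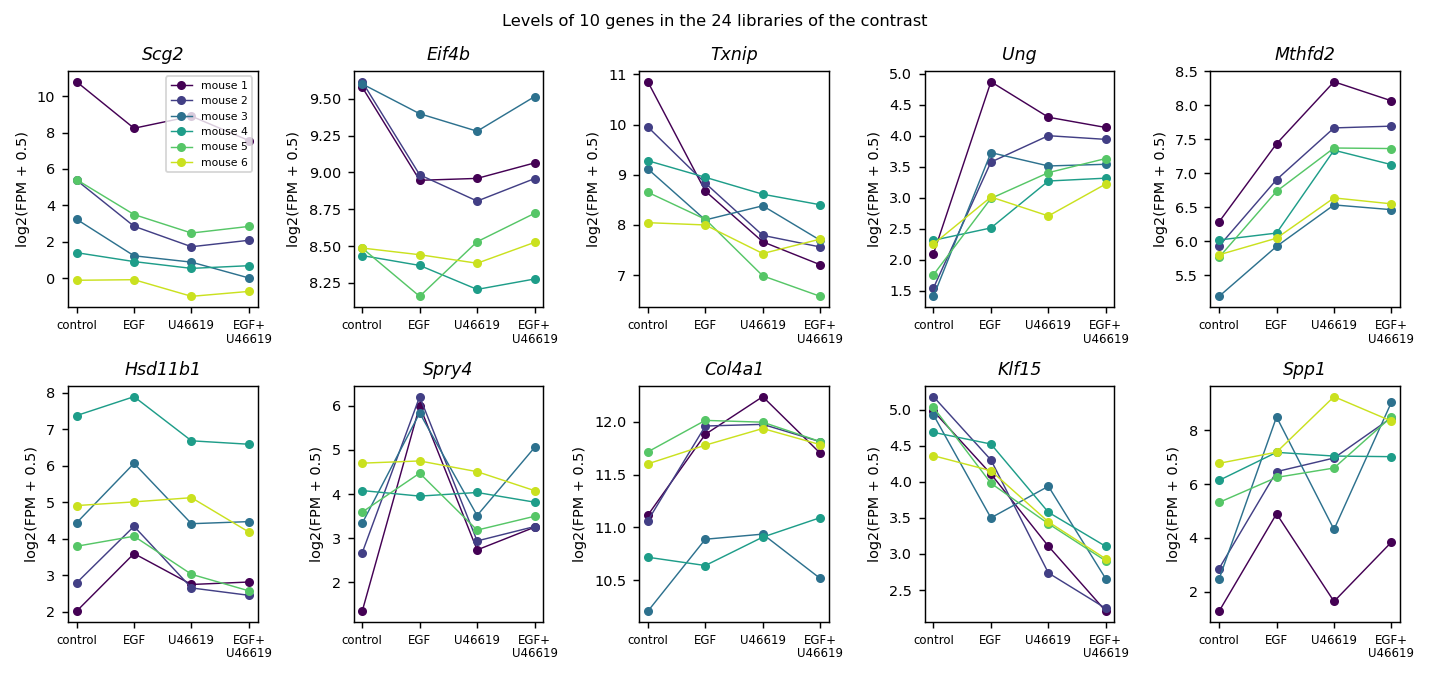
Levels of 10 genes as log2(FPM + 0.5) in the control, EGF, U46619 and EGF+U46619 cultures, 1 line per mouse. Scg2, Eif4b and Txnip lie above the sum, Ung, Mthfd2, Hsd11b1, Spry4 and Col4a1 below it, and Klf15 is near additive with a departure of 0.019, while Spp1 varies widely between mice.

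The study has a table of genes for the combination of EGF and U46619. Of the 12 genes, all of which were tested here, 0 departed from the sum at an unadjusted p under 0.05 in edgeR and in DESeq2. Limma within mice put 3 of the 12 (Spp1, Pcif1 and Tpst1) at an unadjusted p under 0.05, where it put 18.6% of all genes tested. The median departure of the 12 genes was 0.13. The study chose these genes because their FPM with both substances differed from those with each substance alone, after 24 h, after 48 h or at both times. That criterion is not a departure from a log2 sum, so the count of 0 is no repeat of the study's own comparison. The 24 h libraries were part of that choice, so the direction of these genes is no independent evidence. Klf15, a Kruppel-like transcription factor, stood at 20.1, 30.5 and 35.8 FPM in the control cultures, 10.8, 17.0 and 22.5 FPM with EGF, 6.17, 10.3 and 14.8 FPM with U46619 and 4.12, 6.39 and 8.10 FPM with EGF+U46619. The control cultures lay above all cultures with U46619, with or without EGF. Its log2-fold changes were -0.79 with EGF, -1.50 with U46619 and -2.27 with both, against a sum of -2.29, a combined change past the FDR (6.31e-08) with a departure of 0.019 (SE 0.31). Spp1, which encodes osteopontin, stood at 1.92, 23.2 and 109 FPM in the control cultures, 29.3, 117 and 363 FPM with EGF, 2.61, 111 and 612 FPM with U46619 and 13.9, 340.3 and 531 FPM with EGF+U46619. The control values of mice 1 to 3 lay far below those of mice 4 to 6, and the log2-fold changes were 2.40 with EGF, 1.93 with U46619 and 3.23 with both, against a sum of 4.33. The departure of Spp1 was -1.10 (SE 0.93), below 0 in 5 of 6 mice, and on the FPM scale it was 19.6 FPM ± 204 (SD, n = 6), above 0 on average. After 48 h, in other mice, the log2 departure of Spp1 had the opposite sign, at 0.997 (SE 0.54). The nearest to the threshold in edgeR was the tyrosylprotein sulfotransferase Tpst1 with 0.30 (SE 0.20). Pcif1, which methylates the mRNA cap, gave 0.27 (SE 0.21) and lay above the sum in 6 of 6 mice, and the serine racemase Srr gave 0.24 (SE 0.26). The other 7 had departures from 0.0065 (Hadhb-ps) to 0.25 (Fam110b), with Ctdsp1, Gm6665, Gstm2, Inpp4a and Mtap between them. Hadhb-ps is a pseudogene whose counts share reads with its parent gene.

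A related contrast could be formed with AngII in 3 of the 4 arms (EGF+AngII+U46619 minus EGF+AngII minus U46619 plus AngII), which shares the mice and the 6 U46619 libraries with the first. No culture had AngII and U46619 without EGF, so a response to AngII does not cancel. With additive effects this contrast would equal the AngII response and not 0. The AngII contrast gave 0 genes at an FDR under 0.05 in both tools (0.0%), and 981 genes above (6.69%) and 528 below (3.6%) at the unadjusted threshold. List medians were -1.11 for the mitotic, -0.73 for the replication, -0.50 for the cholesterol and 0.18 for the FOXO list. In this contrast the combined culture of mouse 3 has a TMM factor of 0.646, far below the others, and the median of nuclear oxidative phosphorylation genes moved from 0.029 to 0.46.

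After 48 h, in 5 cultures per group from 4 other mice, the same contrast gave 0 of 14634 genes at an FDR under 0.05 (0.0%), with 1.06% above and 1.42% below at the unadjusted threshold without an FPM minimum. The 2 culture sets of 1 mouse were fitted as separate sets, so the standard errors at 48 h may be too small. The mitotic list had a median departure of -0.28, the replication list -0.15, the cholesterol list -0.39, the collagens -0.29, the ERK inhibitors -0.14 and the FOXO list 0.043, beside -0.000757 over all genes. The cholesterol and collagen medians were the furthest from 0, and the replication and FOXO medians were much nearer to 0 than after 24 h. Scg2 gave 1.13 (SE 0.42), Spry4 -0.70 (SE 0.17) and Col4a1 -0.34 (SE 0.15), while Ung was at -0.00125 (SE 0.30) and Mthfd2 at 0.00360 (SE 0.19). Of the genes past the unadjusted threshold below the sum after 24 h, 83 of 123 were below it after 48 h, and of those above, 55.0% were above it, where 49.8% of all genes were above.

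**Figure D5:**
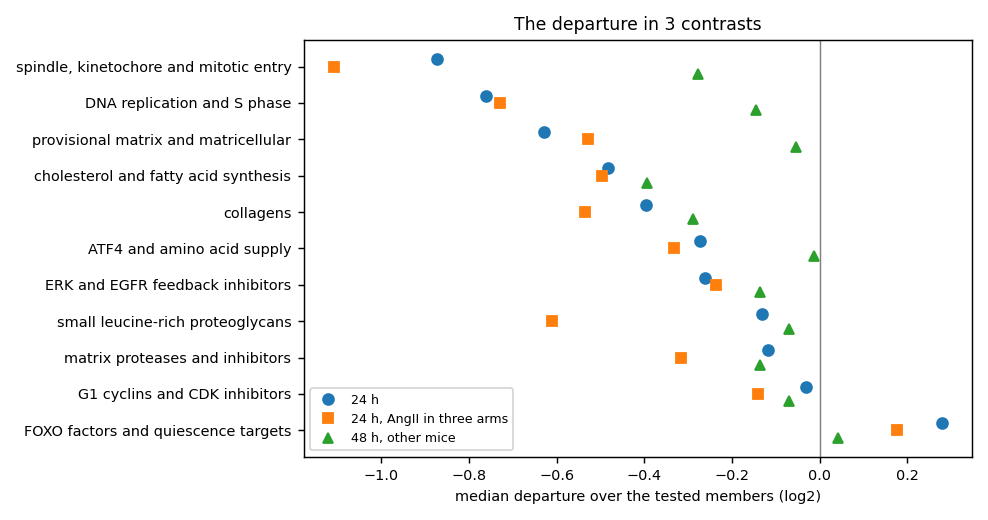
Median departure over the tested members of 11 gene lists in the 24 h contrast (circles), in the 24 h contrast with AngII in 3 arms, which shares the U46619 libraries (squares), and in the 48 h contrast from other mice (triangles). All points of the mitotic and replication lists lie below 0, and the 48 h points, at -0.28 and -0.15, lie nearest to it.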

How the data were processed

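RNA was poly(A)-enriched and sequenced as paired ends. Per the labels and the study's methods, the authors aligned the reads with HISAT2 2.1.0 to mm10 and counted them per gene and exon with featureCounts, reads that map to several places included, so genes with near-identical copies are uncertain. The deposited values are raw counts per gene and library. Of 55401 genes in the 24 h table, all of chromosomes 9, X, Y and MT and the 657 genes of chromosome 8 that start beyond base 97876154 are listed at 0 and are not analysed here. The 48 h table without U46619 was not used.

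The 42 libraries of 7 groups at 24 h were fitted together with mouse and treatment as factors, as in the study, in edgeR 4.0.16 (quasi-likelihood test, TMM) and DESeq2 1.42.0 (Wald test), with Benjamini-Hochberg adjustment over 14653 genes that passed edgeR's filter. The 48 h fit used 20 libraries with the culture set as a factor. FPM are counts per 1000000 after TMM scaling, departures per mouse were taken from log2(FPM + 0.5), and limma 3.58.1 tested these. Standard errors are edgeR's. With mouse or culture set as a factor, differences in level between mice are taken out of them. They rest on the spread that remains over all libraries of a fit, 42 at 24 h and 20 at 48 h. They are therefore not the spread of a gene's departure over the mice, which limma used. Libraries of the same mouse deviated together in 36 of 36 pairs of groups (lowest correlation 0.56), so the mouse numbers pair the samples. At 24 h the mice are separate animals, with 1 culture of each per group. At 48 h the labels give mouse 7 for 2 of the 5 culture sets, which were fitted as separate.

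Members and gene lists were chosen with earlier results of these data known. Named genes were those of the study's combination table, both receptor genes, the 8 genes with the lowest edgeR p in each direction (unadjusted p under 0.05 in both tools, 5 FPM, 1 sign in 6 of 6 mice, no Gm, Rik or pseudogene symbols), any gene past the FDR threshold, and in each list the most abundant member and the 2 with the lowest p; further members past the threshold are given with their departure. Some genes that the rule names are not reported here. Alternatives covered the tool, scaling, filters, pseudocount, replicate block, groups in the fit, the FPM scale, class thresholds and each mouse left out. The fits were tested on simulated data.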

Additional observations from a re-analysis of the deposited data

Results flagged for a closer look

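Of 49 sets of 6 values examined for 1 sample far from the others, 3 were marked by Dixon's criterion, where chance marks about 1 in 20. The mean departure of the cholesterol and fatty acid synthesis genes was -1.99 in mouse 1, and the nearest other mouse had -0.59. The mean departure of the glycolysis and hypoxia genes, enzymes of sugar breakdown and their HIF-driven partners, was -0.27 in mouse 5, and the nearest other mouse had -0.022. The 50 most abundant genes took 23.7% of the counts of the control culture of mouse 1, and the nearest control culture had 17.8%. The cholesterol value and the share of abundant genes concern the same library, and its part in the departures of mouse 1 was not tested beyond the values without that mouse and with its AngII culture in place of the control.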

How the results depend on the processing

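The count of 0 genes at an FDR under 0.05 held under the alternatives run, except 1 gene with limma within mice. Of the genes of the main fit, limma put 8.24% at the unadjusted threshold above and 7.96% below the sum. Without the replicate block there were 0.0546% above and 0.212% below, without an FPM minimum 1.94% above, and with the 4 groups of the contrast alone 1.27% below. Leaving out 1 mouse gave 0.614 to 1.71% above and 0.287 to 1.40% below, with a share above that moved by over 1.5 times without mouse 1, 2, 4, 5 or 6 and a share below that did so without mouse 1, 2 or 6. The cause was not tested.

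List medians with AngII in 3 arms moved to -0.076 for Kruppel-like factors, 0.46 for oxidative phosphorylation, -0.19 for circadian genes, 0.27 for antioxidant genes, -0.61 for proteoglycans, -0.32 for proteases, -0.44 for fibrinolysis and -0.097 for prostanoid genes. With the AngII culture in place of the control they moved to 0.047 for circadian genes, -0.39 for provisional matrix, -0.32 for chemokines and -0.031 for prostanoid genes. The provisional matrix median was -0.32 in DESeq2, -0.31 as a mean over mice and -0.31 with a pseudocount of 5. The prostanoid median was -0.14 without the replicate block, -0.063 as a mean over mice and 0.0041 with a pseudocount of 5. Leaving out 1 mouse gave -0.12 to 0.082 for circadian, -0.064 to 0.096 for antioxidant, -0.77 to -0.40 for provisional matrix, -0.33 to -0.16 for fibrinolysis, -0.28 to 0.15 for chemokine, -0.27 to -0.00076 for prostanoid, -0.40 to 0.14 for ABCA8-type and 0.040 to 0.17 for combination table genes. With an EGF class at an FDR under 0.05, the median was 0.51 for genes lower with both and -0.54 for genes higher with EGF and in no U46619 class. In the other 488 list-by-setting and 69 class-by-setting pairs, the median moved by less than its SD over mice. That limit is wide where mice differ, with an SD of 1.44 for the mitotic and 0.69 for the cholesterol list.

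No named gene was past the FDR, and some departures changed sign. As a sum of FPM, Spp1 came to 19.6 FPM and Atf5 came to 31.5 FPM and Prelp came to 87.3 FPM. With the AngII culture, Hadhb-ps came to -0.019 and Mtap came to -0.0014 and Rasa3 came to 0.036 and Col1a2 came to -0.0056. Without the replicate block, Hadhb-ps came to -0.0074 and Prelp came to 0.0089. In the fit of 4 groups, Hadhb-ps came to -0.017 and Inpp4a came to -0.0065 and Col1a2 came to -0.013. With 1 mouse left out the ranges were -0.088 to 0.18 for Gstm2, -0.038 to 0.031 for Hadhb-ps, -0.049 to 0.11 for Inpp4a, -0.11 to 0.052 for Klf15, -0.031 to 0.070 for Mtap, -0.12 to 0.12 for Egfr, -0.064 to 0.067 for Ccnd2, -0.17 to 0.082 for Atf5, -0.082 to 0.037 for Col1a2 and -0.048 to 0.24 for Fn1.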

Other observations

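Genes of nuclear oxidative phosphorylation, which encode the respiratory chain, had a median departure of 0.029 over 37 members, with list means of 0.13, 0.18, -0.013, 0.068, -0.16 and -0.014 in mice 1 to 6. The means of mice 1, 2 and 4 lay above the sum and those of mice 3, 5 and 6 below it. Endothelial markers had a median departure of 0.27 over 7 tested members and fibroblast markers 0.044 over 6, with 0 members of either past the unadjusted threshold. On the FPM scale, 45 of 45 replication genes lay below the sum, 46 of 46 mitotic genes, 26 of 26 cholesterol genes and 2 of 24 FOXO genes. Where both substances lower a gene, decreases multiplied always end above the same decreases added. The FPM scale could therefore not turn a departure above 0 in such FOXO genes. The direction of the replication, mitotic and cholesterol lists did not turn with the scale of the sum. It turned in others, with 8 below and 9 above among G1 cyclins and CDK inhibitors (10 and 7 on the log2 scale), 4 below and 6 above among proteoglycans (6 and 4 on the log2 scale), 9 below and 10 above among matrix proteases and inhibitors (12 and 7 on the log2 scale), 7 below and 12 above among YAP and TEAD targets (10 and 9 on the log2 scale), 8 below and 6 above among chemokines and Csf1 (6 and 8 on the log2 scale) and 8 below and 9 above among prostanoid enzymes and receptors (11 and 6 on the log2 scale). Among ERK inhibitors it was 12 below and 8 above, against 15 and 5 on the log2 scale.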
